A study of Mus musculus with 4 samples.

Results

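The Wnt ligands, their receptors and the modulators of the pathway were examined in stem cells of the hair follicle, from C57BL/6 mice given a high-fat diet (HFD) or a normal diet (ND). Members were taken by a list of gene symbols, which applies no threshold to the measured values, and comprised 64 of the 55401 genes in the deposited table. They were 23 ligands (19 Wnt genes and 4 R-spondins), 16 receptors (10 Frizzled genes, 3 genes of the LRP family, 2 Ror genes and Lgr4), 22 inhibitors, and 3 other genes that serve ligand secretion or carry the signal in the cell. The follicles were in anagen, when hair grows, and the RNA of their stem cells was sequenced in bulk. The HFD group held 2 libraries of mice kept on that diet for 4 months, and the ND group held 2 libraries of mice of the same strain. The labels do not state age, sex or sorting gate, nor whether libraries of 1 diet came from separate mice, so p-values measure only the spread between these libraries.

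Wnt proteins are lipid-modified secreted ligands that bind a Frizzled receptor together with an LRP co-receptor. In canonical signalling this stops the Axin and Apc complex from marking β-catenin for degradation, and β-catenin then enters the nucleus and activates genes with TCF/LEF factors. R-spondins strengthen the signal through Lgr receptors by removing the ubiquitin ligases Znrf3 and Rnf43, which otherwise clear Frizzled from the membrane. In the follicle, Wnt signalling is known for starting hair growth from the stem cells, and inhibitors made in the bulge are known to hold it low at rest.

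The libraries held 8734246 and 8590570 counts with HFD, against 9940848 and 9366856 counts with ND. Libraries of the same diet differed by more than sampling noise, with a chi-square per degree of freedom of 6.53 for the HFD pair and 13.9 for the ND pair. Between the diets it was 25.5 and 25.0 for the HFD libraries against ND library 1. Against ND library 2 it was 15.3 and 17.1, not far above the value of the ND pair. All 11 bulge stem cell markers looked for had counts, and 1 of them, Krt14, rose. Among them Krt15 stood at 1640.27 and 1640.76 FPKM with HFD, against 1169.74 and 1571.24 FPKM with ND, where FPKM scales a count by exonic length and library total. Another of them, Lgr5, stood at 19.88 and 20.62 FPKM with HFD, against 22.76 and 24.25 FPKM with ND. Of the 11, Krt5, Krt14, Krt15, Col17a1 and Itga6 stood higher in both HFD libraries than in either ND library. Cd34, Lgr5, Sox9, Lhx2 and Nfatc1 stood lower in both, and Tcf7l1 overlapped. Markers of other epidermal layers also differed between the diets. Of all genes tested, edgeR called 1.12% higher and 0.228% lower. The summed level of 8 suprabasal markers was 3965 and 4925 CPM (counts scaled by library size) with HFD, against 1214 and 2873 CPM with ND, and 3 of the 8 rose (Krt10, Krtdap and Dsg1a) while Flg fell. For 7 basal epidermal markers the sum was 16420 and 15130 CPM with HFD, against 11410 and 12500 CPM with ND, and 3 rose (Krt14, Ly6d and Fgfbp1). Krt5 and Krt14 made up most of this sum, and both are also among the 11 bulge markers. Of 8 upper follicle markers 4 rose (Krt79, Cst6, Defb6 and Gata6), at a sum of 4242 and 3723 CPM with HFD, against 4538 and 3756 CPM with ND. Lrig1 and Lgr6 stood lower in both HFD libraries without being called, and Krt17 and Plet1 overlapped between the diets. The 10 markers of fibroblasts and dermal papilla, a mesenchymal source of R-spondins, summed to 113.2 and 103.8 CPM with HFD, against 78.7 and 78.9 CPM with ND; none of the 8 tested was called by edgeR and Corin was at 0 counts. For 4 endothelial markers the sum was 17.4 and 22.7 CPM with HFD, against 9.49 and 14.4 CPM with ND, and none was called. For 6 immune cell markers it was 40.8 and 45.2 CPM with HFD, against 19.0 and 35.7 CPM with ND, and none of the 5 tested was called. Sebaceous gland markers summed to 501 and 511.5 CPM with HFD, against 600.9 and 531 CPM with ND. In the same order, hair germ and matrix markers had 258.2 and 255.8 CPM, against 249.5 and 273.1 CPM. Pericyte and smooth muscle markers had 523.8 and 470.6 CPM, against 493.6 and 520.8 CPM. Melanocyte markers had 21.12 and 12.64 CPM, against 26.35 and 12.63 CPM. Adipocyte, Schwann cell and Merkel cell sums were at most 3.58 CPM, and no gene of these lists was called. The part of these cell types in the results below was not tested, and in bulk RNA fewer cells of a type and less RNA per cell cannot be told apart.

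Of the members, 7 passed the test, and they lay in every class but the secretion and effector genes. The R-spondin Rspo3, the ligand Wnt3, the receptors Fzd10 and Lrp4 and the membrane inhibitors Apcdd1 and Tnfrsf19 rose with HFD, and the receptor Ror2 fell. A gene was called at a Benjamini-Hochberg adjusted p under 0.05 in edgeR's quasi-likelihood test, adjusted over the 14479 genes tested. Of the 64 members 45 were tested, and 6 higher calls are 13.3% of these, beside 1.12% of all genes tested. The 1 lower call is 2.22% of the tested members, beside 0.228% of all genes. The list was chosen with earlier results of these data known. Its shares beside those of all genes, here and by class below, are therefore descriptions and not an independent test. An unadjusted p under 0.05 was reached by 15 of the 45 members and by 13.3% of all genes tested. Both HFD libraries stood above both ND libraries for 17 members and below them for 9, and the diets overlapped for 19, whereas 22.7% of all genes stood above and 21.9% below. Here and below, overlap was judged on CPM scaled by TMM, the scaling of the test, and not on the deposited FPKM, which carry no such scaling. The median log2 fold change of HFD over ND was 0.15 over the tested members, with 26 positive and 19 negative, and 0.00 over all genes tested.

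The filter on low counts bears on these counts. It asked for 1.105 CPM in 2 or more libraries. Rspo3, Wnt11, Nkd2 and Kremen2 passed it through their HFD libraries alone and so had to differ, and no member passed through ND libraries alone. Among the 37 members with a mean of at least 1 FPKM over the 4 libraries, a filter that uses no diet, edgeR called 5 higher and 1 lower, beside 1.64% and 0.422% of 13026 genes. Over all genes the split was 162 higher and 33 lower calls. It was 88 and 3 with libraries scaled to equal sums of TPM (counts scaled by length and library), 132 and 65 with library totals, and 408 and 225 without the filter.

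**Figure D1:**
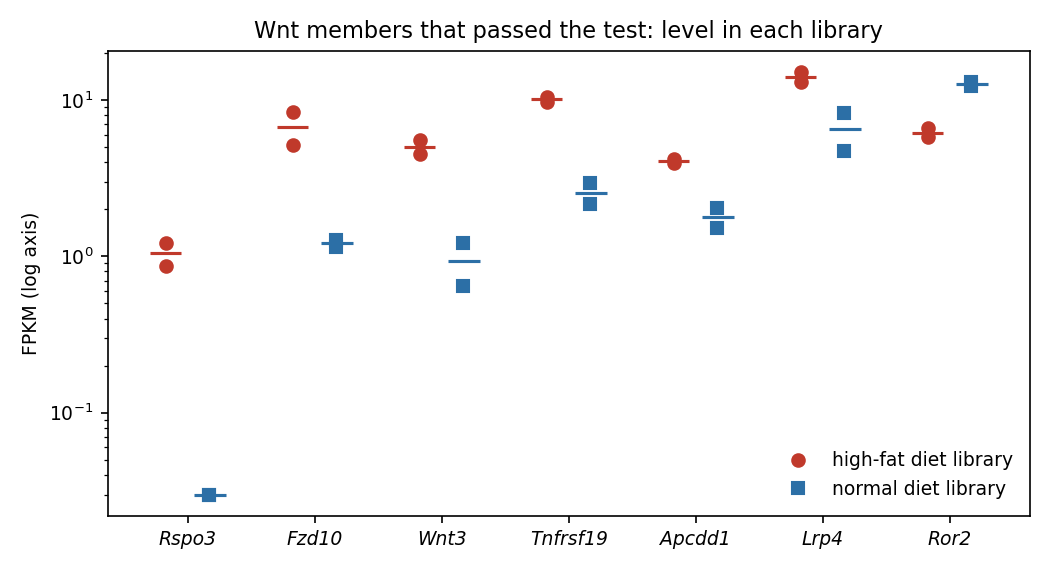
Level in FPKM (log axis) of the 7 members that passed the test, with circles for the 2 HFD libraries, squares for the 2 ND libraries and lines for the means. The diets do not overlap for any of the 7, and Ror2 is the one with HFD below ND.

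Calls were lost in each fit without 1 library. A fit without 1 library takes its spread from the diet that keeps both, and assumes the same spread for the single library of the other. Without either ND library no member stayed called. This does not rank the libraries, since fits without an ND library and fits without an HFD library take their spread from different pairs. Leaving out HFD library 1 left Wnt3, Lrp4, Apcdd1 and Tnfrsf19 called, and leaving out HFD library 2 left Fzd10 and Tnfrsf19. The sign of the fold change stayed the same for the 7 members in each of these fits.

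**Figure D2:**
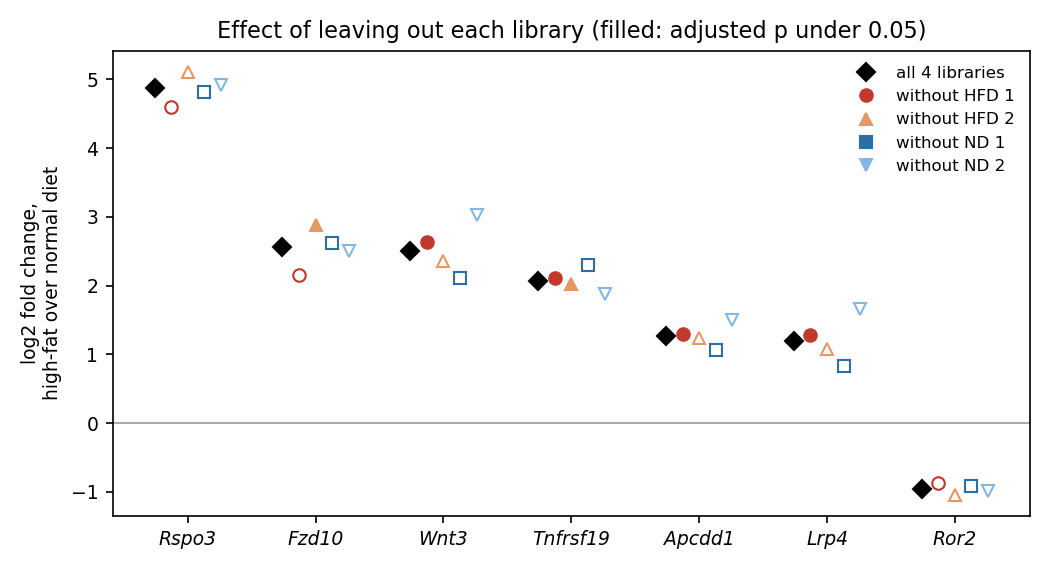
log2 fold change of HFD over ND for the 7 members that passed the test, with all 4 libraries and with each library left out in turn, and filled symbols for an edgeR adjusted p under 0.05. The symbols of a gene keep to one side of 0, while the filled ones disappear without either ND library.

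The promoters of called members show whether the TCF/LEF core motif lies near their start sites. RefSeq windows of build GRCm38.p6, running from 250 bases before to 50 bases after a start, were found for 40 of the 64 members, among them 4 called ones. Their windows are printed in the direction of the gene, 5′ to 3′, apart from a further window of Tnfrsf19. Capitals mark any match to CTTTGA or CTTTGT on either strand.
Wnt3 promoter, chr11:103773925-103774224, plus strand: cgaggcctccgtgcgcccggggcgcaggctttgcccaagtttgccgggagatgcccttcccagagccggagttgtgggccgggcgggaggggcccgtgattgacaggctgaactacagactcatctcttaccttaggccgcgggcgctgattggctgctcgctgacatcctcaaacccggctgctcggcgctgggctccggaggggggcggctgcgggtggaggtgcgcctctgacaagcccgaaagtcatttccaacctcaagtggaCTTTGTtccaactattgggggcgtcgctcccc
Fzd10 promoter, chr5:128600856-128601155, plus strand: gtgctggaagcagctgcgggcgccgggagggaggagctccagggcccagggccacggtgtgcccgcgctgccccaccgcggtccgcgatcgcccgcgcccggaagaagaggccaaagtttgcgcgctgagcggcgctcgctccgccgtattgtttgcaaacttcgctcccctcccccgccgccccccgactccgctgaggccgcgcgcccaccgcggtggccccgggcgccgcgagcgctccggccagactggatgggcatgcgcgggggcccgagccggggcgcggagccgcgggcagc
Tnfrsf19 promoter, chr14:61037938-61038237, minus strand: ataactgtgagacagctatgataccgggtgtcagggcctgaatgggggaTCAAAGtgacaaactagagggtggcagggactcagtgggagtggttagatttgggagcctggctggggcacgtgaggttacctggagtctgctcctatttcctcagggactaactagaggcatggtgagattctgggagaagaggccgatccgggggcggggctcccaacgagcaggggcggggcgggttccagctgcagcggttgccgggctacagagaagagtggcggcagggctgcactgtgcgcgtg
Ror2 promoter, chr13:53286075-53286374, minus strand: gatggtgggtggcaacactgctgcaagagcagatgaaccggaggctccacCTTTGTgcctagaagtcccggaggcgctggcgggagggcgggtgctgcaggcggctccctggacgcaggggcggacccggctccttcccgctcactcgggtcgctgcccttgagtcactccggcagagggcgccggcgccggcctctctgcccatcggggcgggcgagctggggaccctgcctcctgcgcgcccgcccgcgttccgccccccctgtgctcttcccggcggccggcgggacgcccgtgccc
The Wnt3 window held CTTTGT at position 269, counted from 1 at its 5′ end, which lies past the start site. In the Ror2 window, of the gene that fell, CTTTGT lay at position 51. The printed Tnfrsf19 window lies inside the gene's coordinates and held CTTTGA on the reverse strand at position 50. The gene's other window, chr14:61046806-61047105, is not printed and had no match, nor had that of Fzd10. A match to either motif occurred in 11 of the 46 member windows (23.9%) and in 31.2% of all 32851 windows of that length, where CTTTGA alone occurred in 16.0% and CTTTGT in 18.7%. The median GC content was 66.2% in the member windows and 52.7% in all windows. A match is a description of the letters and not a binding site.

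Among the ligands, Wnt3 and Rspo3 rose and the most abundant Wnt genes were not called. Of the 23 ligand genes 12 were tested, 2 were called higher and 0 lower, and 4 had an unadjusted p under 0.05. Their median log2 fold change was 0.87, and 7 stood above ND in both HFD libraries, 2 stood below and 3 overlapped. These shares, 16.7% called higher, 33.3% with an unadjusted p under 0.05, 58.3% above and 16.7% below, stand beside 1.12%, 13.3%, 22.7% and 21.9% of all genes tested. The 7 above include Rspo3 and Wnt11, which passed the count filter through their HFD libraries alone, so that side was fixed for them. Rspo3 is also among the 2 called. Low genes weigh on the median log2 fold change, which was 0.36 among members with a mean of at least 1 FPKM.

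Wnt3, a canonical ligand of the epithelium (chr11:103774150-103817957, plus strand, GRCm38), had 4.50 and 5.53 FPKM with HFD, against 0.65 and 1.21 FPKM with ND. Every HFD library was several times above the higher ND library. Its log2 fold change was 2.51 ± 0.41 (SE), or 5.68-fold, with an edgeR adjusted p of 0.0157. Wnt3 made up 7.50% and 9.29% of the summed FPKM of the 19 Wnt genes with HFD, against 1.45% and 2.14% with ND, and it ranked 4 by mean FPKM with HFD and 7 with ND. Its close relative Wnt3a, also canonical, had 2.11 and 1.22 FPKM with HFD, against 0.47 and 0.35 FPKM with ND. The diets did not overlap for Wnt3a, but at 2.10 ± 0.68 (SE) its edgeR adjusted p was 0.201. The transcripts of Wnt3 and Wnt3a share no word of 50 bases.

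Rspo3, a secreted amplifier of Wnt signals, was counted 33 and 23 times with HFD, against 1 and 1 times with ND (chr10:29452416-29535867, minus strand). This is 1.22 and 0.87 FPKM with HFD, against 0.03 and 0.03 FPKM with ND. With library totals scaled by TMM, the ratio of the pooled counts, HFD over ND, was 33.2. Its 95% interval of 8.76 to 280 covers counting error only. The fitted log2 fold change was 4.87 ± 1.05 (SE), and the edgeR adjusted p of 0.0496 lay at the threshold. It was 0.0503 with median-ratio scaling, within a range of 0.00363 to 0.464 over all alternatives. Exons of Rspo3 overlap the opposite-strand gene Gm48159 over 404 bases, and that gene had 0 counts in each library. Rspo1 had at most 6 counts in a library, and Rspo2 and Rspo4 had none.

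The main Wnt transcripts of these cells were Wnt7b, Wnt4 and Wnt10a. Wnt7b, a ligand known in mouse for a role in starting anagen, had 16.36 and 18.82 FPKM with HFD, against 20.54 and 20.92 FPKM with ND. Both HFD libraries were lower, but at a log2 fold change of -0.15 ± 0.14 (SE) the edgeR adjusted p was 0.711. Its share of the summed Wnt FPKM was 27.3% and 31.6% with HFD, against 45.7% and 36.9% with ND. Wnt4, which acts through both canonical and other routes, had 12.34 and 14.85 FPKM with HFD, against 6.67 and 9.80 FPKM with ND. The diets did not overlap, and at 0.81 ± 0.21 (SE) the edgeR adjusted p was 0.101, with a range of 0.00455 to 0.486 over the alternatives. Wnt10a, whose human gene is mutated in ectodermal dysplasias, had 12.76 and 10.28 FPKM with HFD, against 7.05 and 12.20 FPKM with ND. The diets overlapped, and the log2 fold change was 0.35 ± 0.28 (SE) with an edgeR adjusted p of 0.662.

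The summed FPKM of the 19 Wnt genes was 59.8 ± 0.311 with HFD and 50.8 ± 8.25 with ND (SD, n = 2 each). Both HFD libraries were higher, by about the SD of the ND pair, and with 2 libraries a diet an exact permutation test cannot go below a p of 0.333. The other tested ligands were not called. Wnt10b, Wnt11 and Wnt16 stood higher in both HFD libraries, at under 1 FPKM in every library. Wnt5a, the main ligand of the Ror receptors, had 0.82 and 0.62 FPKM with HFD, against 1.12 and 1.04 FPKM with ND. Wnt5b and Wnt6 overlapped between the diets at 2.11 to 5.53 FPKM. Wnt16 was at 0 counts in ND library 1 and at 22 in ND library 2. Among the 8 Wnt genes not tested, 42 counts for Wnt7a in ND library 2 was the highest value, against 5 in ND library 1 and 3 and 2 with HFD.

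**Figure D3:**
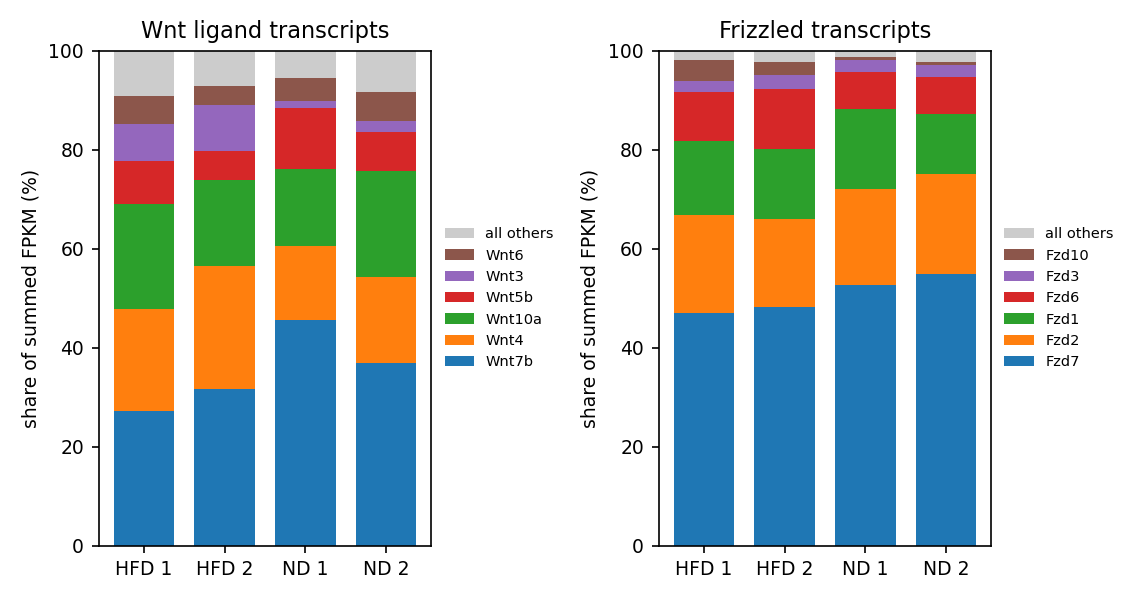
Share of each gene in the summed FPKM of the 19 Wnt genes (left) and the 10 Frizzled genes (right) in each library, HFD libraries first, with the 6 most abundant genes in colour and the others in grey. The Wnt3 share is 7.50% and 9.29% with HFD, against 1.45% and 2.14% with ND, and Fzd7 is the largest Frizzled share in all 4 libraries.

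Among the receptors, Fzd10 and Lrp4 rose, Ror2 fell and the abundant Frizzled genes were not called. Of the 16 receptor genes 15 were tested. Their median log2 fold change was -0.07, with 3 above ND in both HFD libraries, 4 below and 8 overlapping. The shares above (20%) and below (26.7%) were near the 22.7% and 21.9% of all genes tested, while 13.3% were called higher and 6.67% lower, beside 1.12% and 0.228%. The summed FPKM of the class was 315.7 ± 2.78 with HFD and 358.7 ± 3.10 with ND (SD, n = 2 each), a gap larger than either SD. FPKM are scaled by library totals, and the gap was smaller with FPKM scaled by TMM. There the class summed to 325.4 ± 5.48 with HFD and 348.1 ± 0.777 with ND, and the diets still did not overlap. The most abundant receptors, Fzd7 and Lgr4, weigh most on these sums, and neither was called. Fzd7 had a mean of 91.95 FPKM with HFD and 115.2 with ND, and Lgr4 55.67 and 72.75. Of the tested receptors 6 had positive fold changes and 9 negative ones.

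Fzd10, a Frizzled receptor for Wnt ligands (chr5:128600844-128604093, plus strand), had 8.35 and 5.12 FPKM with HFD, against 1.27 and 1.15 FPKM with ND. The lower HFD library was still several times above both ND libraries. Its log2 fold change was 2.56 ± 0.35 (SE), or 5.90-fold, with an edgeR adjusted p of 0.00646. Even so Fzd10 was a small part of the Frizzled transcripts, at 4.19% and 2.74% of their summed FPKM with HFD, against 0.609% and 0.524% with ND. Fzd7 was the largest part, with 93.80 and 90.10 FPKM with HFD, against 109.72 and 120.66 FPKM with ND. Both HFD libraries were lower for Fzd7, at -0.24 ± 0.12 (SE) and an edgeR adjusted p of 0.418. Fzd2 had 39.29 and 33.46 FPKM with HFD, against 40.53 and 44.16 FPKM with ND, and on CPM scaled by TMM the diets overlapped, with an edgeR adjusted p of 0.749. Fzd6, which sets the orientation of hairs in mouse, had 19.91 and 22.76 FPKM with HFD, against 15.43 and 16.06 FPKM with ND. The diets did not overlap for Fzd6, but at 0.52 ± 0.14 (SE) its edgeR adjusted p was 0.118. Fzd9 had at most 2 counts in a library. The other 5 tested Frizzled genes overlapped between the diets, at log2 fold changes of -0.14 to 0.83.

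Lrp4, an LRP family member that binds secreted inhibitors such as sclerostin and Wise (chr2:91457511-91513779, plus strand), had 12.93 and 15.09 FPKM with HFD, against 4.74 and 8.28 FPKM with ND. The ND libraries differed from each other, and both lay below the HFD pair. Its log2 fold change was 1.19 ± 0.22 (SE), or 2.28-fold, with an edgeR adjusted p of 0.0277. The fold change depended on the ND library, being 0.84 without ND library 1 and 1.66 without ND library 2. The canonical co-receptors Lrp5 and Lrp6 were not called. Lrp5 had 20.46 and 19.64 FPKM with HFD, against 20.19 and 20.80 FPKM with ND, and Lrp6 had 18.14 and 17.80 FPKM with HFD, against 21.41 and 21.33 FPKM with ND.

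Ror2, a receptor tyrosine kinase for Wnt5a that signals outside the β-catenin route (chr13:53109312-53286124, minus strand), had 5.78 and 6.56 FPKM with HFD, against 13.09 and 12.26 FPKM with ND. Both pairs were tight and well apart. Its log2 fold change was -0.95 ± 0.18 (SE), a ratio of 0.517, with an edgeR adjusted p of 0.0314. The call was lost with libraries scaled to equal sums of TPM, and adjusted p ranged from 0.000579 to 0.464 over all alternatives. Its relative Ror1 had 8.19 and 8.97 FPKM with HFD, against 12.74 and 8.91 FPKM with ND, and the diets overlapped. Lgr4, an R-spondin receptor, had 52.79 and 58.56 FPKM with HFD, against 80.18 and 65.32 FPKM with ND. Both HFD libraries were lower for Lgr4, at -0.30 ± 0.13 (SE) with an edgeR adjusted p of 0.352.

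**Figure D4:**
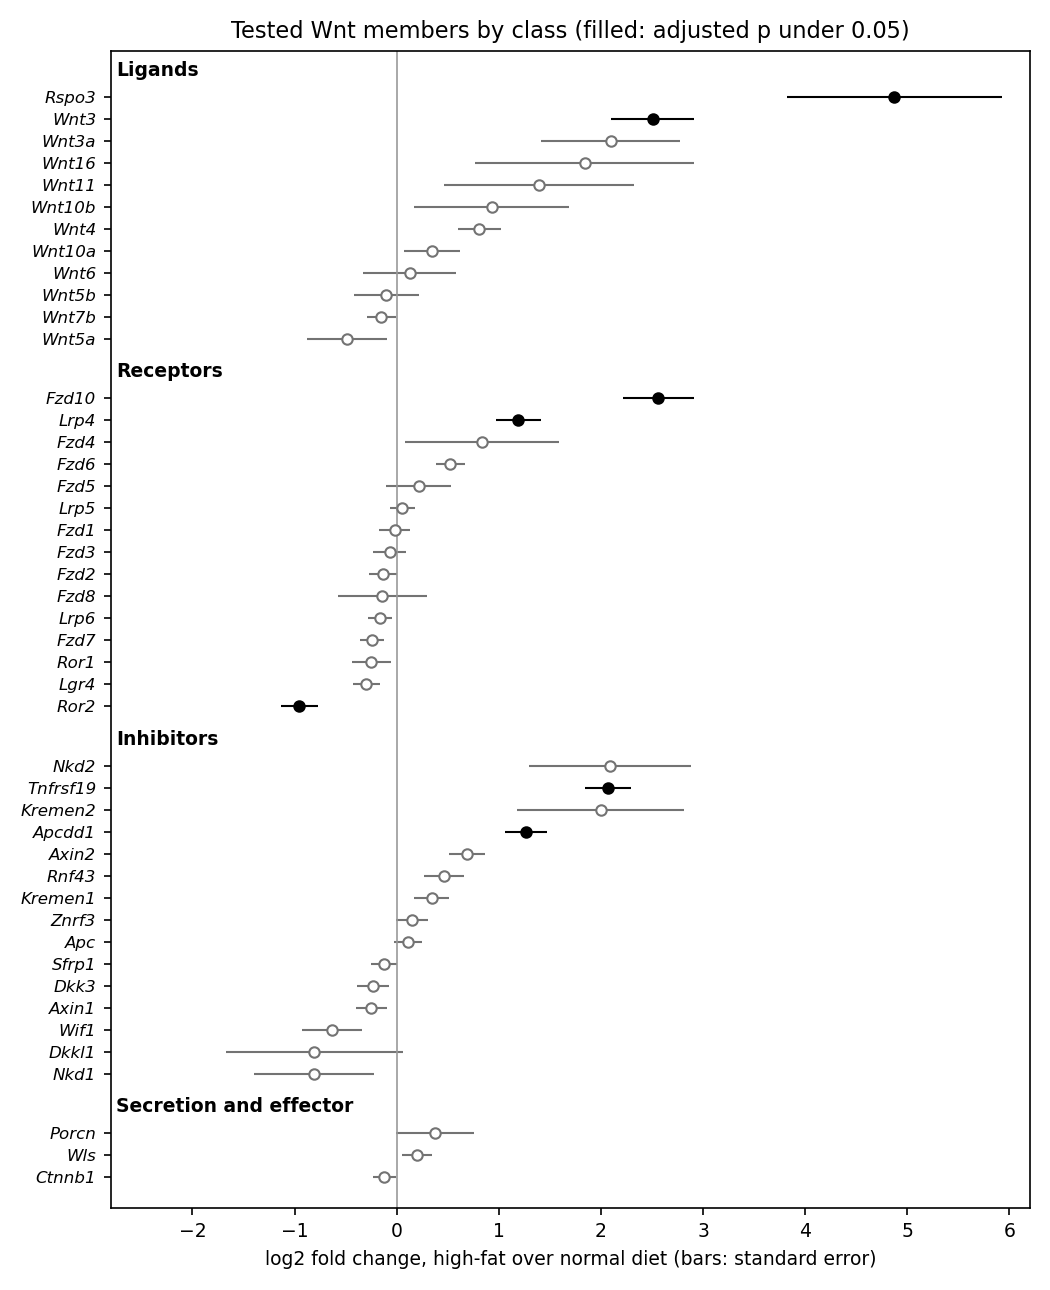
log2 fold change of HFD over ND with its standard error for the 45 tested members, grouped into ligands, receptors, inhibitors, and secretion and effector genes, with filled points for an edgeR adjusted p under 0.05. The 6 filled points of the genes that rose lie to the right of 0 and Ror2 is the 1 to the left.

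Among the inhibitors, the membrane proteins Tnfrsf19 and Apcdd1 rose, and no secreted inhibitor was called. Of the 22 inhibitor genes 15 were tested, with 2 called higher and 0 lower, a median log2 fold change of 0.15, and 7 above ND in both HFD libraries, 2 below and 6 overlapping. The called share of 13.3% higher stands beside 1.12% of all genes tested, and the shares above (46.7%) and below (13.3%) stand beside 22.7% and 21.9%. The 7 above include Nkd2 and Kremen2, which passed the count filter through their HFD libraries alone, so that side was fixed for them. The 4 membrane inhibitors all had positive fold changes, and their summed FPKM was 29.7 ± 2.67 with HFD and 17.8 ± 1.21 with ND (SD, n = 2 each). The 4 tested secreted inhibitors all had negative fold changes and summed, with the 7 untested ones, to 258.7 ± 37.2 FPKM with HFD and 307.2 ± 9.69 FPKM with ND. Both gaps were larger than either SD. With FPKM scaled by TMM the membrane group summed to 30.6 ± 2.50 with HFD and 17.3 ± 1.36 with ND. On that scale the secreted group summed to 266.7 ± 40.5 with HFD and 298.2 ± 12.6 with ND, the diets overlapped and the gap was under the SD of the HFD pair.

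Tnfrsf19 (Troy), a membrane protein of the TNF receptor family known as a Wnt inhibitor in mouse intestine (chr14:60963875-61046490, minus strand), had 9.71 and 10.42 FPKM with HFD, against 2.93 and 2.16 FPKM with ND. The pairs were tight and far apart. Its log2 fold change was 2.07 ± 0.22 (SE), or 4.19-fold, and its edgeR adjusted p of 0.00231 was the smallest of the members. Apcdd1, a membrane glycoprotein that binds Wnt and LRP and is mutated in a human hereditary hair loss (chr18:62922231-62961179, plus strand), had 3.94 and 4.17 FPKM with HFD, against 1.52 and 2.05 FPKM with ND. Both HFD libraries stood above both ND libraries. Its log2 fold change was 1.27 ± 0.21 (SE), or 2.41-fold, with an edgeR adjusted p of 0.0157. The ubiquitin ligase Rnf43 had 6.84 and 8.38 FPKM with HFD, against 5.09 and 6.64 FPKM with ND, at 0.46 ± 0.20 (SE) with an edgeR adjusted p of 0.339. Its partner Znrf3 overlapped between the diets, with 7.28 and 8.58 FPKM with HFD, against 7.39 and 7.79 FPKM with ND.

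Sfrp1, a secreted Frizzled-like decoy, was the most abundant member, with 226.05 and 185.10 FPKM with HFD, against 238.86 and 237.86 FPKM with ND. It made up 75.7% to 79.7% of the summed FPKM of the 11 secreted inhibitors in the 4 libraries. At -0.13 ± 0.13 (SE) its edgeR adjusted p was 0.734, and on CPM scaled by TMM the diets overlapped, as they did for Dkk3. Dkk3, a divergent member of the Dickkopf family, had 52.59 and 41.52 FPKM with HFD, against 52.77 and 64.55 FPKM with ND, and an edgeR adjusted p of 0.589. Wif1, which binds Wnt proteins directly, had 5.66 and 3.74 FPKM with HFD, against 7.46 and 8.05 FPKM with ND. The diets did not overlap for Wif1, and at -0.63 ± 0.29 (SE) its edgeR adjusted p was 0.383. The classic Dickkopf inhibitors Dkk1 and Dkk4 had 0 counts in all libraries, Dkk2 had at most 3, and Sfrp2, Sfrp4, Sfrp5 and the Wnt deacylase Notum had at most 8. Dkkl1 overlapped between the diets at 0.58 to 3.52 FPKM.

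Axin2, a scaffold of the destruction complex and a widely used readout of canonical signalling, had 8.82 and 9.43 FPKM with HFD, against 5.76 and 6.24 FPKM with ND. The diets did not overlap, and at 0.69 ± 0.18 (SE) the edgeR adjusted p was 0.0931, with a range of 0.0400 to 0.476 over the alternatives. Axin1, the other Axin scaffold, had 18.15 and 22.11 FPKM with HFD, against 24.10 and 26.72 FPKM with ND. Both HFD libraries were lower for Axin1, at -0.25 ± 0.15 (SE) with an edgeR adjusted p of 0.535. Apc overlapped between the diets at 11.57 to 14.40 FPKM, and Nkd1 at 0.41 to 1.73 FPKM. Nkd2, which binds Dishevelled, had 0.47 and 0.92 FPKM with HFD, against 0.21 and 0.13 FPKM with ND, at 2.09 ± 0.79 (SE) with an edgeR adjusted p of 0.271. Kremen2, a receptor for Dickkopf proteins, had 24 and 24 counts with HFD, against 7 and 7 counts with ND, or 4.00-fold, with an edgeR adjusted p of 0.313. Its exons overlap the opposite-strand gene 9530082P21Rik over 200 bases, and that gene had 17 and 39 counts with HFD, against 21 and 24 counts with ND. Kremen1, the other Dickkopf receptor, had 7.09 and 8.05 FPKM with HFD, against 5.84 and 6.83 FPKM with ND, and was not called. Exons of Wnt5a, Wnt7b, Fzd6, Axin2 and Ctnnb1 also overlap opposite-strand genes with counts, over 358, 324, 152, 209 and 759 bases. With the strand handling not stated, reads of such partners cannot be told apart.

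The secretion and effector genes were not called. Wls, which carries Wnt proteins to the cell surface, had 17.11 and 13.82 FPKM with HFD, against 14.75 and 13.88 FPKM with ND. Porcn, which attaches the lipid to Wnt proteins, had 6.11 and 2.87 FPKM with HFD, against 3.05 and 4.31 FPKM with ND. Both genes overlapped between the diets, with edgeR adjusted p of 0.616 for Wls and 0.742 for Porcn. Ctnnb1, which encodes β-catenin, had 147.30 and 143.96 FPKM with HFD, against 165.93 and 170.44 FPKM with ND. Both HFD libraries were lower, at -0.12 ± 0.11 (SE) with an edgeR adjusted p of 0.702, and β-catenin protein was not measured.

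Of 91 other genes of the pathway, such as Dishevelled, TCF/LEF factors and known targets, 82 were tested, and edgeR called 1 higher and 0 lower, while 14 had an unadjusted p under 0.05. Their median log2 fold change was -0.05, and 17 stood above ND in both HFD libraries, 22 stood below and 43 overlapped. The shares called higher (1.22%), with an unadjusted p under 0.05 (17.1%), above (20.7%) and below (26.8%) were near the 1.12%, 13.3%, 22.7% and 21.9% of all genes tested, so these counts do not set the list apart. The 1 called gene was Nfatc2, a calcium-regulated transcription factor, with 105 and 95 counts with HFD, against 18 and 30 counts with ND. The HFD pair lay well above the ND pair, at 2.29 ± 0.44 (SE) with an edgeR adjusted p of 0.0328, and the call was lost in each fit without 1 library. The next by p were not called. Ccnd2, a cyclin, had 30.51 and 30.81 FPKM with HFD, against 21.13 and 23.24 FPKM with ND, with an edgeR adjusted p of 0.0517. Jup, the β-catenin relative plakoglobin, had 101.49 and 100.27 FPKM with HFD, against 67.15 and 80.15 FPKM with ND, with an edgeR adjusted p of 0.0644. Mycn, a growth regulator, had 28.35 and 29.15 FPKM with HFD, against 45.79 and 42.54 FPKM with ND, with an edgeR adjusted p of 0.0816. The diets did not overlap for these 3 genes.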

How the data were processed

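Bulk RNA-seq of 4 libraries was analysed, grouped by the diet in the labels. In the table that the authors deposited, each gene has for every library a raw count and its FPKM, beside exonic size and coordinates. The deposited FPKM equalled the count scaled by exonic size and column total within 0.005, so they carry no other scaling. Per the submitters' processing notes the tools were HISAT2 2.0.1, cutadapt 1.9.1 and bcl2fastq 2.17.1.14, with no roles stated. For the counter, strand handling, annotation and build, nothing is given in the sources used here. Coordinates are the table's, and all 64 members have the same ones in GENCODE for GRCm38.

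Counts were tested with edgeR 4.0.16 (quasi-likelihood test, R 4.3.3), using TMM factors of 0.965 to 1.04, a filter on low counts (minimum 10 per library and 15 in total) that kept 14479 genes, and Benjamini-Hochberg adjustment over them. The common biological coefficient of variation was 20.3%. CPM are scaled by TMM. A floor of 3 counts is worth 0.291 to 0.358 CPM, and covers counting error only, since reads carry no molecular identifiers. The fit was tested on simulated data. Alternatives were no filter, a mean FPKM of at least 1, other scalings, removal of ribosomal, mitochondrial and small RNAs, DESeq2 1.42.0, limma 3.58.1 on log2(FPKM + 1) and log2(FPKM + 0.1), a block for replicate number, and fits without each library. Sums of FPKM scaled by TMM were added after seeing the data.

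Full values are given for members that were called, had an unadjusted p under 0.05 or were among the 3 highest by mean FPKM in their class, and for the called genes and the 4 with the smallest p among other pathway genes. Values of Wif1, Wnt5a, Lrp5, Lrp6, Ror1, Kremen1 and Znrf3 and of untested genes were added after they were seen. The members and gene lists were chosen with earlier results of these data known.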

Additional observations from a re-analysis of the deposited data

How the results depend on the processing

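Members called higher numbered 6. They were 8 without the count filter (adding Wnt4 and Axin2), 7 with DESeq2 (adding Wnt4), 5 with the mean FPKM filter, median-ratio scaling, library totals or equal sums of TPM (losing Rspo3), and 0 with limma at either pseudocount, which called 2 genes higher and 0 lower in all. At an unadjusted p under 0.05 limma had 17 members with a pseudocount of 1 and 16 with 0.1. Leaving out 1 library gave 0 to 4. The 1 lower member was 0 with equal sums, with limma and without any 1 library. Other pathway genes, 1 higher and 0 lower, were 4 and 4 without the filter, 2 higher with the mean FPKM filter, 1 lower with library totals, 4 and 3 with DESeq2, 0 higher with limma and 0 higher in each fit without 1 library. All genes, 162 higher and 33 lower, were 408 and 225 without the filter, 55 lower with the mean FPKM filter, 65 lower with library totals, 88 and 3 with equal sums, 275 and 119 with DESeq2, and 0 to 81 higher and 0 to 2 lower without 1 library. The scalings moved the median of all genes to between -0.085 and 0.002 on the log2 scale.

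Replicate numbers are shared by the diets in the labels, but deviations of same-numbered libraries had a correlation of -0.005 across genes. This shows no shared replicate effect across genes, but it cannot settle whether the libraries were paired, which the labels do not state. A fit with the replicate number as a block called 7 members higher (adding Wnt4) and 1 lower, 4 other pathway genes higher and 2 lower, and 308 genes higher and 111 lower in all, with a receptor median of -0.024.

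The ligand median of 0.87 was 0.358 with the mean FPKM filter, 0.292 with limma on log2(FPKM + 1) and 0.555 to 1.046 without 1 library. The receptor median of -0.07 was -0.151 with library totals, -0.127 with equal sums, -0.099 and -0.102 with limma, and -0.123 to 0.007 without 1 library. Without 1 library the inhibitor median was 0.123 to 0.469 and that of the secretion and effector genes -0.146 to 0.353. Among the 29 named genes signs turned only for Wnt10a (-0.002 to 0.804), Sfrp1 (-0.286 to 0.019) and Porcn (-0.279 to 0.825) without 1 library, and none of these was called. Of 402 alternative values for these genes 338 kept direction and side of the threshold, 46 lost the call, 15 gained one and 3 turned. The cause of these changes was not tested. Only the called members and Nfatc2 could lose a call, and most of the 338 values came from genes that were not called. With 2 libraries a diet, genes under 1 FPKM rest on few counts.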

Other observations

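Pairs of members lie close together on the genome. Wnt3 and Wnt9b are 24.33 kb apart on chromosome 11, and Wnt9b had 0 counts in all libraries while Wnt3 rose. Wnt3a and Wnt9a are 16.18 kb apart on the same chromosome, and Wnt9a had 2 and 3 counts with HFD, against 1 and 12 counts with ND. Wnt6 and Wnt10a are 6.19 kb apart on chromosome 1, and neither was called.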
